A study of Drosophila melanogaster with 3 samples.

Results

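The genes described here form the core of the fly cell death machinery. They are the inducers reaper (rpr), head involution defective (hid), grim and sickle (skl), the inhibitor Diap1, the adaptor Dark and the caspases Dronc, Drice and Dcp-1. These 9 of 13945 annotated protein-coding genes were taken by name, together with the DNA between hid and skl. Binding of a CG6163-eGFP fusion protein was mapped by chromatin immunoprecipitation and sequencing (ChIP-seq), with an antibody against GFP. The chromatin came from whole *Drosophila melanogaster* prepupae of strain CG6163-GFP, which carries an insertion that targets CG6163. All 3 libraries belonged to this 1 group, as biological replicates. Prepupae of unknown age were used, sex was not collected, and no untagged or other control group was used here, so the values describe where peaks lie and not a change.

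Whole animals mix all tissues, and a site bound weakly in many cells cannot be told apart from a site bound strongly in few. After the authors' threshold, replicate 1 held 7449 peaks, replicate 2 held 7920 and replicate 3 held 5844 (7071 ± 1088, SD, n = 3). The authors' conservative list for the series, with 10892 peaks on the main chromosomes, was the main set. A peak was called matched in a library when it overlapped a thresholded peak of that library by at least 1 bp. Signal is the authors' value per peak and ranks peaks within its own list. Coordinates are dm6.

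In flies, Diap1 is a ubiquitin ligase that binds caspases and keeps them inactive. Rpr, Hid, Grim and Skl are proteins that bind Diap1 and release this block. Dark, the relative of mammalian Apaf-1, then assembles with the initiator caspase Dronc, which cleaves the effector caspases Drice and Dcp-1. At metamorphosis the steroid hormone ecdysone starts this sequence in larval tissues such as the salivary glands, which are broken down.

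Peak summits lay at the transcript starts of hid, Drice, Dcp-1 and Diap1, and at none of the starts of rpr, grim, skl, Dronc and Dark. This is 4 of 9 genes (44.4%) with a summit within 500 bp of a start, against 24.2% of all protein-coding genes. A summit inside the gene was found for 3 of 9 (33.3%; hid, Dcp-1 and Diap1), against 18.7% of protein-coding genes. On each of the 3 other series lists it was 2 of 9 (hid and Diap1; 22.2%), against 16.8% to 20.5%, a gap of less than 1 gene. Within the gene or 10 kb to either side the count was again 4 of 9, the same genes, against 72.2% of protein-coding genes. In the conservative list the share was above the background at starts and below it over the wider window, in a set where 1 gene moves the share by more than 10 percentage points. Both differences kept their direction under the alternative settings, but under some of them the gap was less than 1 gene. With a 200 bp window the start count was 2 of 9 (22.2%), against 18.4%, since the summits of hid and Dcp-1 lay 274 and 299 bp from the start. On the series list of 8933 peaks the 10 kb count was 6 of 9, against 69.2%. A start summit matched in all 3 libraries remained for hid and Diap1, 2 of 9 (22.2%), against 12.1% of protein-coding genes. With the same requirement, a summit inside the gene was left for Diap1 alone, 1 of 9 (11.1%), against 10.4% of protein-coding genes, so the share was near the background. Within 10 kb it was 4 of 9 (44.4%), against 51.1%.

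**Figure D1:**
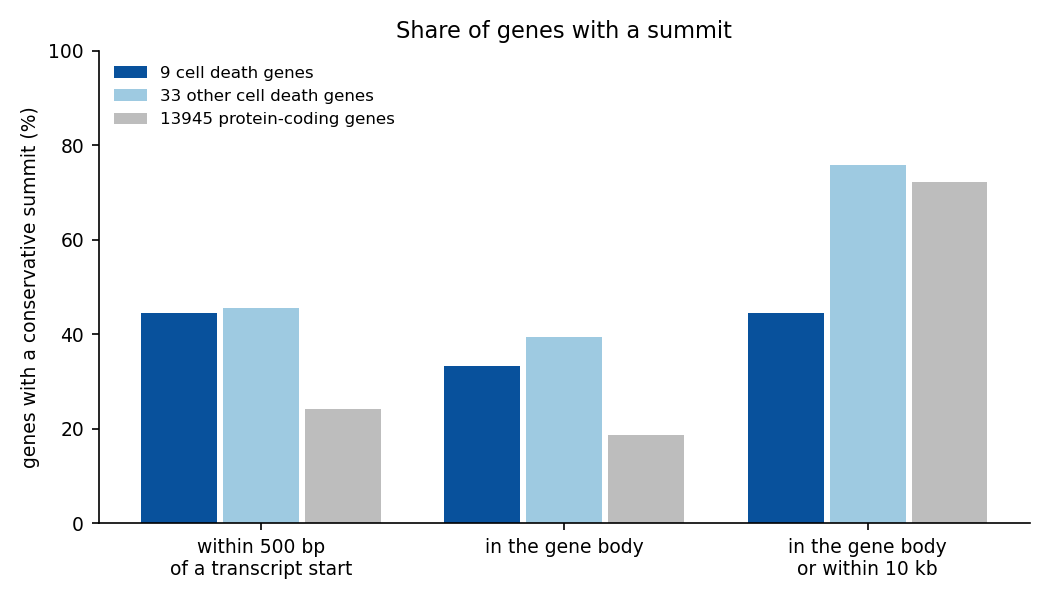
Bars give the percent of genes with a conservative summit (vertical axis) for the 9 cell death genes, 33 other cell death genes and 13945 protein-coding genes, by position of the summit (horizontal axis). The 9 genes stand at 44.4% at starts, against 24.2% of protein-coding genes, and at 44.4% within 10 kb, against 72.2%.

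In the conservative list, the 9 genes fell into separate groups by distance. The nearest summit lay 11 bp from a start of Diap1, 97 bp from Drice, 274 bp from hid and 299 bp from Dcp-1. For the other genes it lay 14.7 kb from Dark, 23.0 kb from grim, 70.8 kb from Dronc, 117 kb from rpr and 159 kb from skl. The median over protein-coding genes was 4642 bp, between these groups. Of all protein-coding genes, 98.7% had a summit nearer than skl did, 97.7% nearer than rpr and 96.1% nearer than Dronc.

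**Figure D2:**
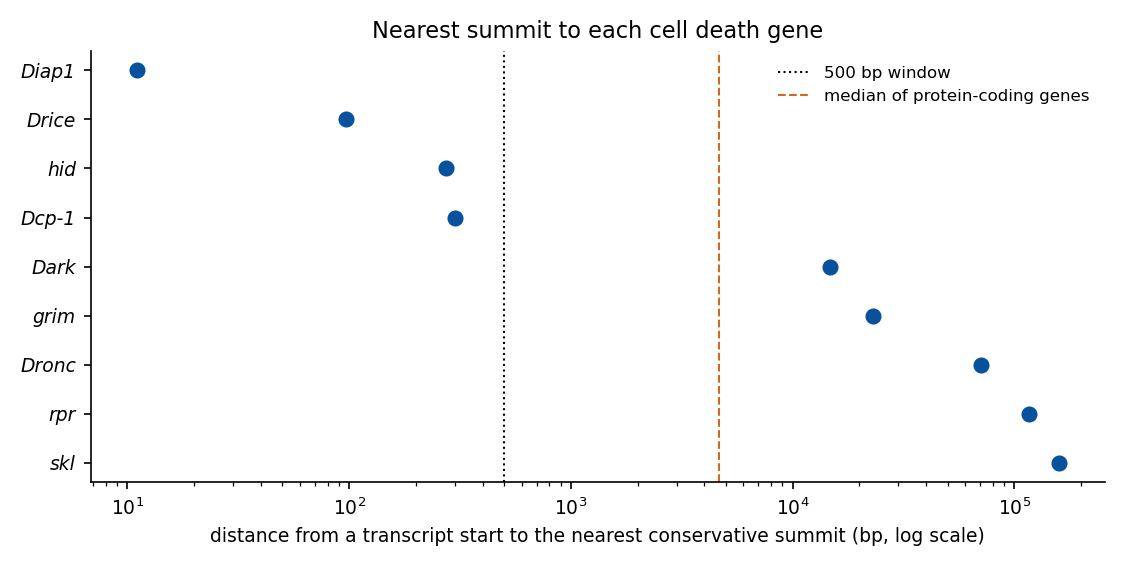
Points give the distance in bp, on a log axis, from a transcript start of each of the 9 genes to the nearest conservative summit. Diap1, Drice, hid and Dcp-1 lie below the 500 bp window (dotted), and Dark, grim, Dronc, rpr and skl lie above the 4642 bp median of protein-coding genes (dashed).

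Around the genes, 55 conservative summits were found, or 51 when overlapping peaks were counted once. Of the 55, 37 lay in the span from hid to skl, 13 around Diap1, 3 around Dcp-1 and 2 around Drice. Their median signal was 166, against 140 over all conservative peaks, and the 55 ranged from 29.2 to 1008. For the 37 in the span from hid to skl the median was 142, near that of the whole list. By position, 31 of the 55 were intergenic, 11 lay at a start of some gene, 10 in introns and 3 in coding exons. A peak in all 3 libraries matched 26 of the 55 (47.3%, exact 95% interval 33.7% to 61.2%), against 40.3% of all conservative peaks. Neighbouring summits share fragments of 200 to 800 bp, and some overlapping peaks were matched through the same library peak. The 55 are thus not independent, and the interval, which treats them as independent, is likely too narrow. Replicate 1 matched 39 of the 55 (70.9%), replicate 2 matched 42 (76.4%) and replicate 3 matched 32 (58.2%), against 64.6%, 67.9% and 49.8% of all conservative peaks. Matches in the libraries compared to make the conservative list are partly built in, and the notes do not say which libraries those were, so these shares do not rank the replicates.

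In the cluster of inducer genes, the summits lay on the hid side. The genes hid, grim, rpr and skl lie in this order on 3L, all on the minus strand. All 37 summits of their span fell within hid or in the DNA between hid and grim. Of the 37, 13 (35.1%) had a q-value above 0.05, near the 33.7% over all conservative peaks. With 10 kb at each end the span is 292 kb long and held 12.7 summits per 100 kb, against 8.72 on all of 3L and 8.14 over the main chromosomes. Of 96 adjacent stretches of that length along 3L, 22 held as many summits or more, and the 96 had a median of 24.0 summits and a range of 0 to 123. The stretch of 117 kb between hid and grim alone held 33 summits, or 28.2 per 100 kb. It was not set beside other stretches of its length, and 10 of the 33 summits had a q-value above 0.05.

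The gene hid (chr3L:18167745-18185641, minus strand) spans 17.9 kb from a single start. Its start summit lay 274 bp upstream, in a peak with a signal of 363 that exceeded 87.0% of the conservative list. The overlapping peaks of the libraries had signals of 109, 117 and 117 in replicates 1, 2 and 3. These ranked above 97.4%, 97.5% and 98.6% of the peaks in the ranked lists of the same libraries. The ranked lists hold mostly peaks below the threshold, so a thresholded peak ranks high in them by construction. Among the thresholded peaks alone, the hid start peak ranked above 75.5%, 77.2% and 80.3% in replicates 1, 2 and 3.

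Stronger peaks lay further upstream of hid. The peak 5.02 kb upstream had a signal of 689, with 258, 240 and 187 in replicates 1, 2 and 3. At 9.54 kb the signal was 575, with 256, 201 and 143 in the replicates. This peak lay 987 bp from the start of the noncoding gene lncRNA:CR45234. At 26.7 kb, where the nearest start was that of CG7320, the signal was 492, with 200, 185 and 124. The strongest peak of the span lay 50.4 kb upstream of hid and 1244 bp from the start of the long noncoding RNA gene lncRNA:CR45937. Its signal of 909 exceeded 97.6% of the conservative list, with 326, 422 and 240 in replicates 1, 2 and 3. It was the highest peak of the span in every library and ranked above 96.6%, 97.8% and 95.0% of their thresholded peaks. The other 3 upstream peaks ranked above 91.6% to 94.8% of the thresholded peaks of replicate 1, 89.2% to 93.3% of replicate 2 and 82.0% to 91.8% of replicate 3.

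The sequences under the start summit of hid and under these 4 upstream summits are shown because they are the only start site among the inducers and the 4 highest signals of the span. All 5 summits lie outside annotated genes. Each is 101 bp of dm6 from the RefSeq release, centred on the summit and read on the minus strand, the strand of hid. Capitals mark the 21 bases centred on the summit.
hid start (chr3L:18185865-18185965): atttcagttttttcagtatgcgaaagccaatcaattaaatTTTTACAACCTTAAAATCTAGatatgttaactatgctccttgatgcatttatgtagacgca
hid 5.02 kb upstream (chr3L:18190609-18190709): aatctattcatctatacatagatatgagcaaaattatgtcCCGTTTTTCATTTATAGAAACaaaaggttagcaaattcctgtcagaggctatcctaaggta
hid 9.54 kb upstream (chr3L:18195135-18195235): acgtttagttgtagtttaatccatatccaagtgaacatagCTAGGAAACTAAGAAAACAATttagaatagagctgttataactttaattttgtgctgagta
hid 26.7 kb upstream (chr3L:18212318-18212418): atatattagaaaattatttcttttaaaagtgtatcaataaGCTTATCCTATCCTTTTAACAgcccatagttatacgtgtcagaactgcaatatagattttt
hid 50.4 kb upstream (chr3L:18235954-18236054): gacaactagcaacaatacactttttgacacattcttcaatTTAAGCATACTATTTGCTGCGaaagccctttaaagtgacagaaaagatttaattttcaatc
The A/T content of these windows was 70.3%, 68.3%, 70.3%, 74.3% and 68.3%, in the order printed, against 60.9% ± 11.2 over all conservative summits (SD, n = 10892). Of 6 motifs searched, described further on, 1 match fell in them, TATAAA read on the plus strand, 2 bp from the centre of the window 5.02 kb upstream.

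The peaks upstream of hid were not evenly spread. Within the first 10 kb upstream lay 7 summits, 5 of them matched in all 3 libraries. One of these 5, with a signal of 42.9, overlapped the peak 5.02 kb upstream and shared its library peaks. Between 50 and 60 kb upstream lay 6 summits, all matched in all 3 libraries. The next 10 kb, from 60 to 70 kb, also held 6 summits, of which 0 were matched in all 3. No summit lay from 70 to 80 kb. The last summits before grim, 30.0 and 23.0 kb downstream of the grim start, had signals of 309 and 237 and were matched in all 3 libraries. The 23.0 kb peak had 98.2, 77.5 and 65.6 in replicates 1, 2 and 3.

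Of the 33 summits between hid and grim, 17 were matched in all 3 libraries, 6 in a pair of libraries, 6 in 1 and 4 in none. In the whole span the 17 peaks matched in all 3 libraries had a median signal of 309, and the 6 matched in none had signals of 86.0 to 120. The nearest start was that of hid for 3 of the 33, CG7320 for 6, CheA75a for 6 and CG5103 for 2. For the other 16 it was that of a noncoding gene, lncRNA:CR45234, lncRNA:CR45935, lncRNA:CR45936 or lncRNA:CR45937. Inside hid itself lay 4 weaker summits, with signals of 91.5, 86.7, 126 and 86.0, none of them matched in more than 1 library. Of these 4, 3 had a q-value above 0.05.

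**Figure D3:**
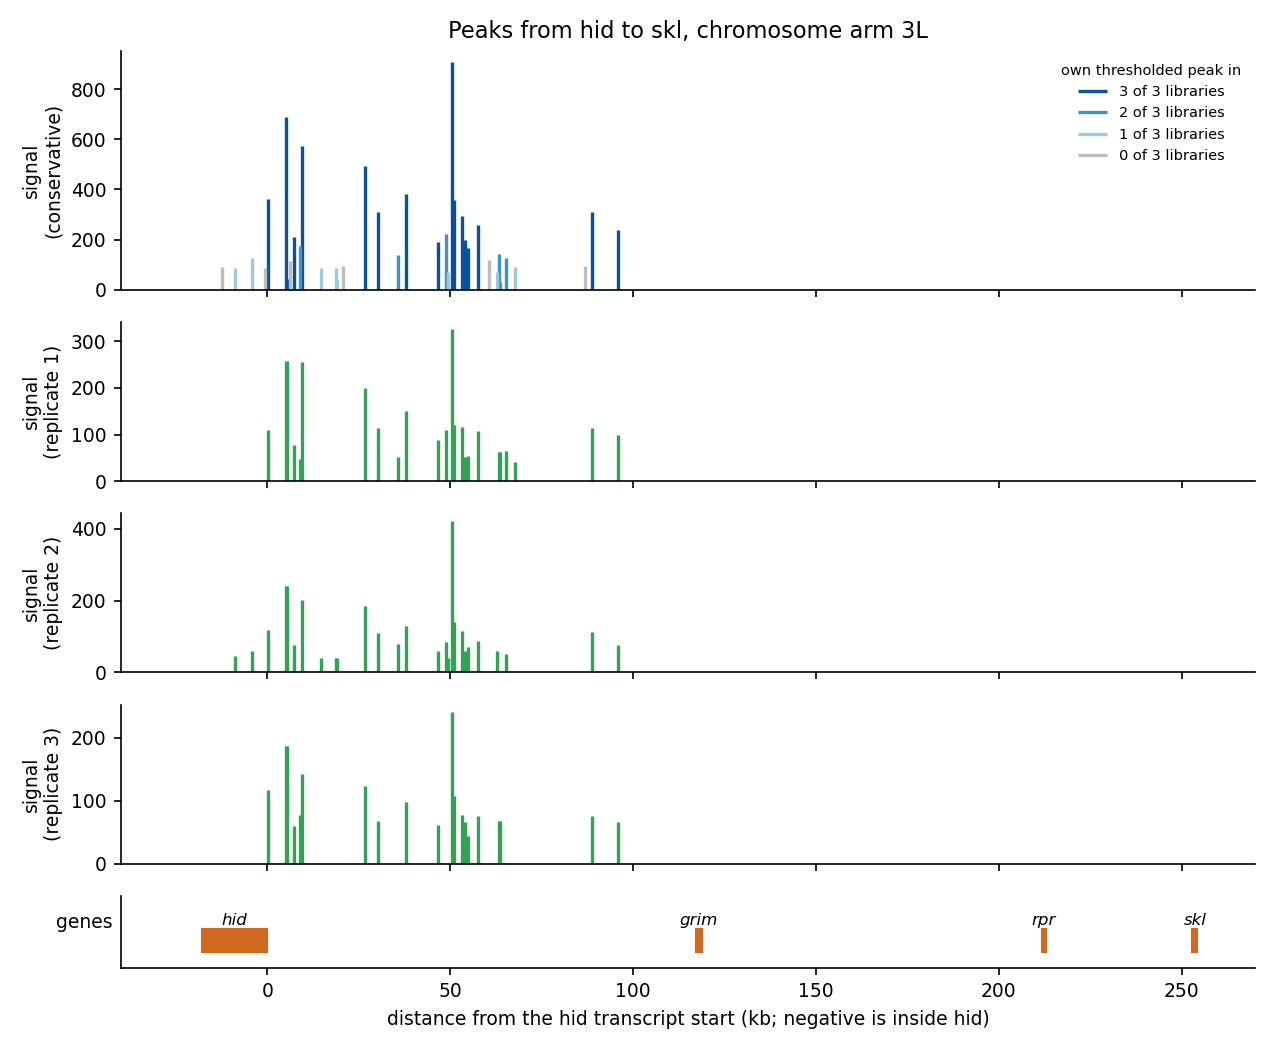
Bars give the authors' signal (vertical axes, each list on its own scale) at conservative summits, by distance in kb from the hid transcript start (horizontal axis), above boxes for hid, grim, rpr and skl. The upper panel is the conservative list, coloured by the number of libraries matched, and the others give the thresholded library peak that overlaps each conservative peak. All 37 summits lie between hid and a point 23.0 kb short of the grim transcript start, and the highest bar in each panel stands 50.4 kb from hid.

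Neither grim (chr3L:18302719-18304417) nor skl (chr3L:18438561-18439942), both inducers like hid, had a peak within 10 kb in the conservative list or in the thresholded list of any library. No conservative summit lay between grim and rpr (93.1 kb) or between rpr and skl (40.1 kb). The gap between the last summit before grim and the next summit, 181 kb beyond the skl start and nearest to the start of the gene *not*, was 339.8 kb long. Only 2 of the 2449 gaps between adjacent summits on 3L were as long, this one included, and the median gap was 2.61 kb. Even the ranked list of the series, which also holds peaks below the threshold, held 4 summits between grim and rpr and 7 between rpr and skl, against 110 between hid and grim.

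The gene rpr (chr3L:18397535-18398435, minus strand) had no thresholded peak within 10 kb in any library or in the conservative list. In other deposited lists of the same series weak peaks lay upstream of it. The list of 8933 peaks had them 5004 and 7607 bp upstream, with signals of 76.4 and 82.9 and q-values of 0.264 and 0.200. The list of 12445 peaks had 3, at 4.48, 4.68 and 7.61 kb, with signals of 48.2, 24.3 and 82.9 and q-values of 0.684, 0.859 and 0.200. The list of 9110 peaks had none. Below the threshold, replicate 2 had a ranked peak with its summit 16 bp from the rpr start and a signal of 30.3, above 82.5% of its ranked list. The nearest ranked summit was 2.02 kb away in replicate 1 and 7.29 kb away in replicate 3.

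The inhibitor Diap1 (chr3L:16038410-16051034, minus strand) spans 12.6 kb with 5 annotated starts. It had more summits than any other of the 9 genes, 13 within the gene or 10 kb of it, of which 8 lay inside it and 7 were matched in all 3 libraries. The strongest lay in an intron, 679 bp downstream of a start. Its signal of 1008 was the highest of the 55 and exceeded 98.0% of the conservative list. The libraries had 337, 369 and 204 there in replicates 1, 2 and 3, above 96.7%, 97.1% and 93.2% of their thresholded peaks.

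The sequence under this intronic summit is printed as the strongest site of the set, from the same source, on the minus strand, with the 21 central bases in capitals. None of the 6 motifs fell in it, and its A/T content was 73.3%.
Diap1 intron (chr3L:16046117-16046217): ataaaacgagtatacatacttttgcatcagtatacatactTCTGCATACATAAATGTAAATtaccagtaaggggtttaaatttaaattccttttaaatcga

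The summits at Diap1 starts were weaker than the intronic one. One lay 11 bp downstream of an inner start, with a conservative signal of 149. It had signals of 75.5, 56.8 and 26.6 in replicates 1, 2 and 3, and the peak of replicate 3 was below that library's threshold. The other lay 62 bp upstream of an outer start, with a signal of 127 and with 53.1, 55.2 and 32.9 in the replicates, all above threshold. Further intronic summits had signals of 262, 198, 167, 166 and 166. The nearest start was not always that of Diap1. For the summit with a signal of 262 it was that of lncRNA:CR43951, 872 bp away. For that with 167, and for the further downstream of those with 166, it was that of asRNA:CR45889, 637 and 912 bp away. Beyond the gene, a peak with a signal of 300 lay in a coding exon of CG5895 and was matched in all 3 libraries. A pair of peaks with signals of 178 and 81.7 lay between CG5895 and Diap1 and was matched in replicate 1 alone. On the other side, peaks with signals of 150 and 125 lay within Mbs, the gene of the myosin binding subunit of myosin phosphatase.

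**Figure D4:**
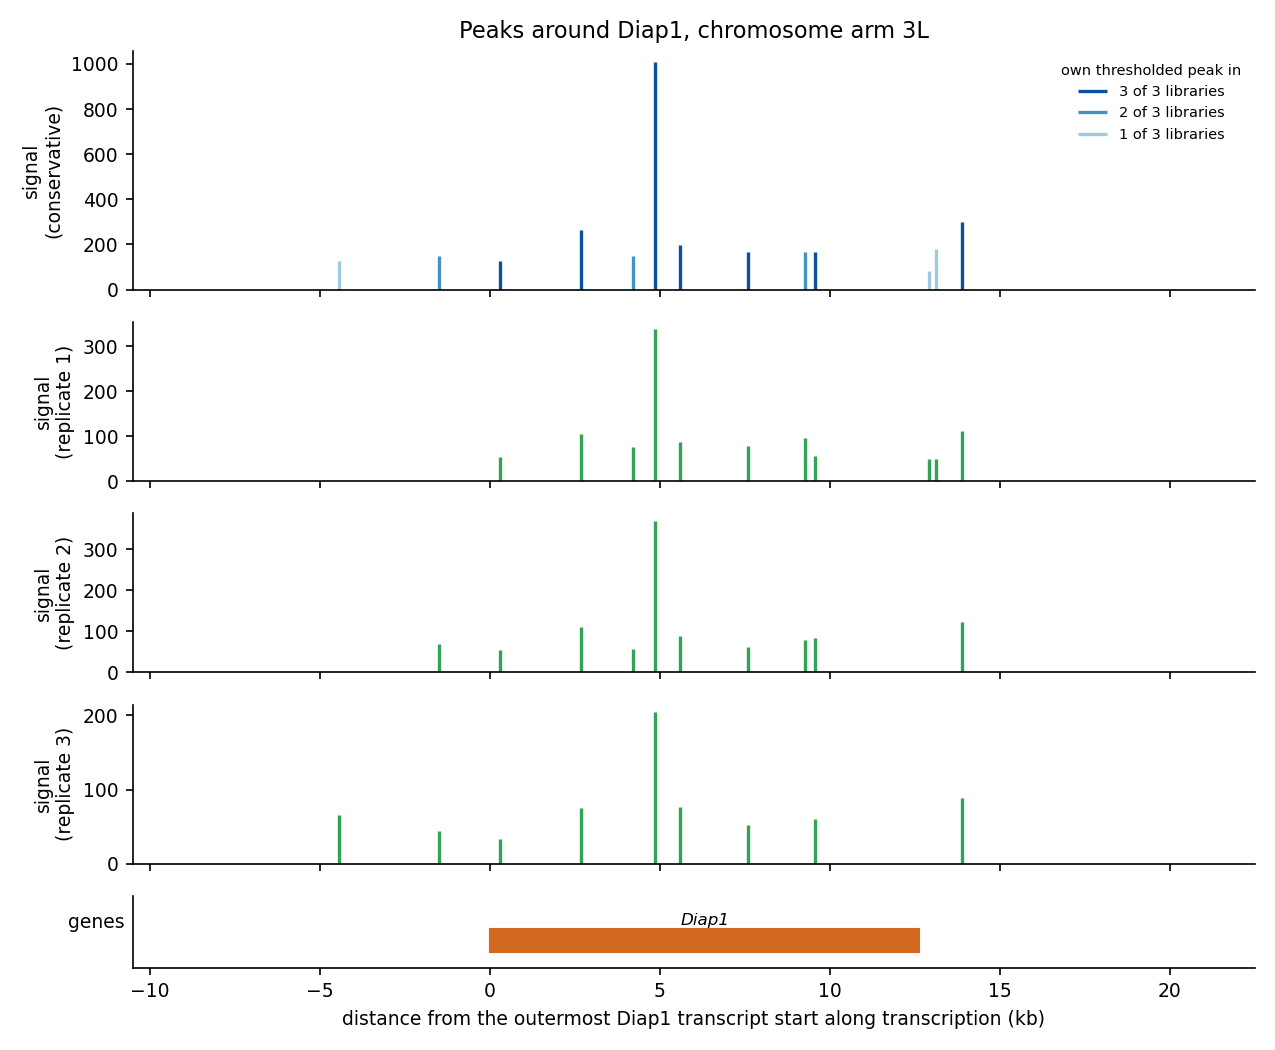
Bars give the authors' signal (vertical axes, each list on its own scale) at the 13 conservative summits around Diap1, by distance in kb along transcription from its outermost start (horizontal axis), with the gene as a box. The upper panel is coloured by the number of libraries matched, and the intronic peak with a signal of 1008 is the highest bar in each library.

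The effector caspases each had a start summit of moderate signal, and both lay beside a neighbouring gene's start. Drice (chr3R:29799658-29801584, plus strand) cleaves many proteins of the dying cell. Its start summit lay 97 bp upstream, in a peak with a signal of 128, above 44.4% of the conservative list, and within 500 bp of the start of Rnb as well. The libraries had 33.9, 57.3 and 46.8 there in replicates 1, 2 and 3, and replicate 1 was below its threshold. A stronger peak lay 3.36 kb downstream at the starts of Etfb and CG7789, with a signal of 427. It had 141, 149 and 133 in the replicates and was matched in all 3.

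The window at the Drice start is printed for comparison with hid and Diap1, on the plus strand, with the same source and the same capitals. Its A/T content was 80.2%, the highest of the 55 windows, and it held none of the 6 motifs.
Drice start (chr3R:29799511-29799611): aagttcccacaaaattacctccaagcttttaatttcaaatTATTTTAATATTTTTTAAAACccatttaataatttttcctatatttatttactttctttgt

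**Figure D5:**
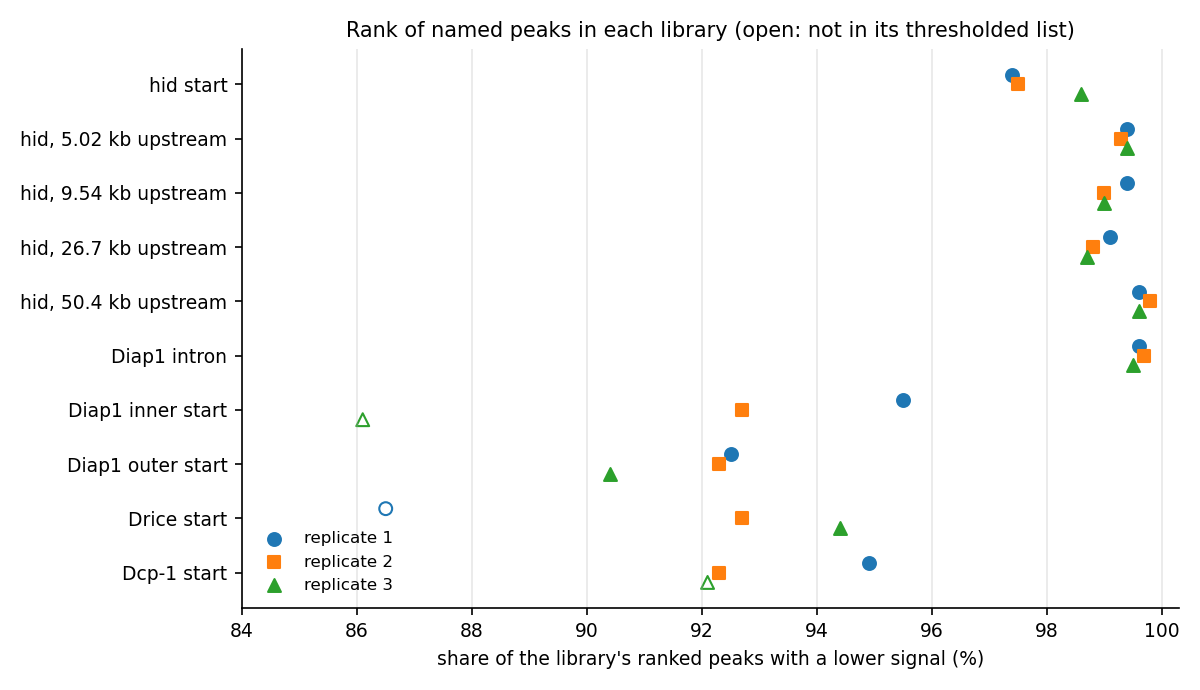
Points give, for 10 peaks named in the text, the percent of a library's ranked peaks with a lower signal (horizontal axis), for replicates 1, 2 and 3. Open symbols were below that library's threshold, and thresholded peaks rank high in these longer lists by construction. The peaks at and upstream of hid and in the Diap1 intron lie above 97% in each library, and the peaks at the starts of Diap1, Drice and Dcp-1 lie lower.

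Dcp-1 (chr2R:23551313-23553547, plus strand), the other effector caspase, had its summit 299 bp downstream of the start and 61 bp from a start of pita, which encodes a zinc finger protein. The peak had a signal of 184, with 69.8, 54.9 and 37.0 in replicates 1, 2 and 3, and replicate 3 was below its threshold. These data do not separate the Dcp-1 start from that of pita. On its sides lay a peak at the starts of wmd and levy, with a signal of 326, and a peak within pita, with a signal of 172. The summit of the latter lay 96 bp downstream of another start of pita. The peak at wmd and levy had 91.6, 114 and 98.6 in the replicates and was matched in all 3, and the peak in pita was matched in replicates 1 and 2.

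The initiator pair showed no start summit. Dronc (chr3L:9968479-9971002, plus strand) had no thresholded peak within 10 kb in any list used here, and its nearest ranked summits were 5.43, 4.76 and 6.30 kb away in replicates 1, 2 and 3. Their signals were 10.3, 18.5 and 8.87. Dark (chr2R:17020027-17026703, plus strand) had none in the conservative list, but thresholded peaks just past its 3' end in some libraries. Replicate 2 had 1, with its summit 151 bp past the end and a signal of 63.1. Replicate 3 had a pair, 121 and 331 bp past the end, with signals of 42.1 and 15.8, and replicate 1 had none. These summits lay within 500 bp of the start of the antisense gene asRNA:CR44390. The series lists of 12445 and 9110 peaks held a peak there with a signal of 111, 217 bp past the end of Dark. The lists of 8933 and 12445 peaks held another with a signal of 103, 1763 bp past the end and in an intron of RhoGEF2. All series lists derive from the same 3 libraries, so a peak on several of them is not separate evidence. At the Dark start itself, the nearest ranked summit of replicate 1 lay 473 bp upstream with a signal of 10.8, above 36.5% of its ranked list.

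In the libraries taken alone, start summits were found for 3 of the 9 genes in replicate 1 (hid, Dcp-1, Diap1), 4 in replicate 2 and 3 in replicate 3 (hid, Drice, Diap1). The shares of all protein-coding genes were 18.9%, 19.7% and 17.3% in the same lists. Inside the gene the counts were 2, 3 and 1 of 9, against 15.0%, 15.5% and 12.9%. Within 10 kb the counts were 4, 5 and 5 of 9, against 65.1%, 66.2% and 61.3%, and Dark was the gene added in replicates 2 and 3.

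Other cell death genes were described from a list of 33, all matched to the annotation. A start summit was found for 15 of the 33 (45.5%), against 24.2% of protein-coding genes, and 8 of the 33 (24.2%) had one matched in all 3 libraries, against 12.1%. A summit lay inside the gene for 13 (39.4%), against 18.7%. Within 10 kb it was 25 (75.8%), against 72.2%, near the background. The highest signals were 1122 at Cyt-c-d, which encodes a cytochrome c used in caspase activation in sperm, and 390 at Prx4, whose product competes with caspases for Diap1. Next came eff (224), a ubiquitin conjugating enzyme gene, and genes for the clearance of dying cells, ced-6 (202) and NimC4 (196). The stress regulators p53 (163) and Xrp1 (157) followed. All of these were matched in all 3 libraries. The Bcl-2 family gene Debcl had a signal of 154 and was matched in 1 library, and the engulfment receptor gene drpr had 142 and was matched in a pair of libraries. The p53 regulator gene Corp had 137 and was matched in all 3. The scavenger receptor gene crq had 114 and was matched in none, and the TNF receptor gene wgn had 102 and was matched in 1. The peaks of Cyt-c-d and crq also lay within 500 bp of starts of CG31808 and shv.

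The sequence around the 55 summits was scanned for 6 short motifs on both strands within 50 bp of the summit, none of which contains another. GAGAG, bound by GAGA factor, was present at 8 (14.5%), against 16.3% of all conservative summits. TATAAA was present at 13 (23.6%), against 15.7%. AGATAA, the core recognised by factors of the serpent family, was present at 3 (5.45%), against 6.22%. The DRE motif TATCGATA was present at 0, against 0.679%, and the AP-1 motif TGANTCA at 0, against 2.33%. AGGTCA, the core site of nuclear receptors such as that for ecdysone, was at 0, against 1.68%. A count of 0 of 55 says only that these letters were not in these windows. The A/T content was 62.4% ± 12.2 (SD, n = 55), against 60.9% ± 11.2 over all conservative summits (SD, n = 10892).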

How the data were processed

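The 3 libraries, replicates of 1 group, were deposited as peak lists on dm6. The score per peak, deposited by the authors, rises as the irreproducible discovery rate (IDR) falls, and the thresholded lists began at 830. The signal per peak, deposited by the authors, was used only within its list. The −log10 q-value deposited by the authors served as a filter at 0.05. The aligner and the caller of peaks are not given in sources used here, and the notes do not say which libraries were compared for the conservative list. Per the labels, chromatin was sonicated to 200 to 800 bp. Read numbers were not used, so depth is given as peaks per list. The control experiment named in the labels was not used here.

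Genes came from Ensembl release 115 and sequence from RefSeq. Of the conservative peaks, 0 ended beyond a chromosome, and 0 columns with values per sample lacked a sample. Conservative summits were sought within 500 bp of transcript starts, in gene bodies and within 10 kb of genes. A match in a library needed an overlap of 1 bp. Counts stand beside those of all protein-coding genes or all conservative peaks, with no test, since there is 1 group. Intervals are exact binomial 95% intervals. Of 33 other cell death symbols, 33 matched, 3 through an older symbol.

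All 9 genes are named, with up to 12 bound genes of the other list by signal and the gene with the nearest start to peaks described. The members and lists were chosen with earlier results of these data known. Alternatives changed the list, library, score, q-value, window, flank and overlap. Overlapping peaks were merged as a setting chosen after seeing the data. Tables were read with pandas 2.3.3 and NumPy 2.4.6 under Python 3.11.15. Intervals came from SciPy 1.17.1 and plots from matplotlib 3.10.9. The counting was tested on simulated data.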

Additional observations from a re-analysis of the deposited data

How the results depend on the processing

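Percentages in brackets are the shares of all protein-coding genes under the same setting. The count of genes with a summit within 10 kb was 4 to 6 of 9 in all 14 alternatives (51.1% to 85.3%). It was 6 on the series list of 8933 peaks (69.2%) and on that of 12445 peaks (76.1%), with rpr and Dark added. On both of these lists the distance below the background was less than 1 gene. It was also less than 1 gene with peaks matched in all 3 libraries (4, 51.1%) and without replicate 1 (4, 53.9%) or replicate 2 (4, 52.9%). The same held in the lists of replicate 2 (5, 66.2%) and replicate 3 (5, 61.3%). Start summits were found for 2 of 9 with peaks matched in all 3 libraries (hid and Diap1; 12.1%) and with a 200 bp window (Drice and Diap1; 18.4%, near the background). They were found for 3 on the other series lists, without Dcp-1 (21.2% to 26.8%). Summits in the gene body were found for 1 gene with peaks matched in all 3 libraries (10.4%) and in the list of replicate 3 (12.9%), both near the background, and for 2 on the other series lists (16.8% to 20.5%). With peaks matched in all 3 libraries there were 26 summits, and 8 other cell death genes. Summits per 100 kb from hid to skl were 8.21 on the list of 9110 peaks (7.35 on 3L), 8.21 with q-values up to 0.05 (5.74 on 3L) and 5.82 with peaks matched in all 3 libraries (3.44 on 3L). The percent of the list below the median member signal was 52.6 on the list of 8933 peaks, against 59.9. Within 100 bp of summits GAGAG was at 14 (25.5%, against 32.4% of all conservative summits), TATCGATA at 1 (1.82%, against 1.39%) and TGANTCA at 2 (3.64%, against 4.49%). TATAAA was at 18 (32.7%, against 26.3%), AGATAA at 3 (5.45%, against 11.1%) and AGGTCA at 0 (against 3.59%). The cause of these changes was not tested, beyond fewer peaks or wider windows.

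With peaks matched in both remaining libraries, leaving out each replicate in turn, start summits were 2 to 3 (12.9% to 15.1%), gene bodies 1 to 2 (10.9% to 12.7%), summits 28 to 33, and density 5.82 to 6.84 per 100 kb (3.72 to 4.76 on 3L). In gene bodies the count of 1 (Diap1), without replicate 1 (11.1%) or replicate 2 (10.9%), was near the background. Drice lacked a start summit without replicate 2 or 3, and Dcp-1 without replicate 1 or 2. No paired analysis was possible because there is 1 group. The number of peaks per library limits what each list can show.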

Other observations

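Around the cell death genes, 9 thresholded library peaks overlapped no conservative peak. Replicate 1 had 1, replicate 2 had 4 and replicate 3 had 4, of which 3 in all lay past the 3' end of Dark. Between hid and grim, replicates 1 and 2 each had such a peak 47.9 and 47.8 kb upstream of hid, with signals of 47.9 and 67.2. The series lists of 8933 and 12445 peaks held a peak 48.0 kb upstream of hid, with a signal of 128. Replicate 3 had such peaks 10.6 kb upstream of hid, 38 bp from the start of lncRNA:CR45234, with a signal of 41.8, and 33.7 kb upstream, with a signal of 37.0.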
